A study of Mus musculus with 2 samples.

Results

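The enzymes that build mucin-type sugar chains, with their sulfotransferases, were compared between colon adenomas and normal colon of mice. The set comprised the mRNA genes whose symbols begin with the family names of polypeptide GalNAc transferases (Galnt), core 1 synthase and its chaperone (C1galt1), branching enzymes (Gcnt), chain-extending enzymes (B3gnt, B3galt, B4gal), sialyltransferases (St3gal, St6gal, St6galnac, St8sia), fucosyltransferases (Fut) and carbohydrate sulfotransferases (Chst). It held 94 of the 35529 genes measured. The selection used symbols and not levels. One further symbol match, a pseudogene that is not of mRNA type, was left out. RNA of colon adenomas from C57BL/6 wild-type mice given azoxymethane, a colon carcinogen, and dextran sodium sulfate, which injures the mucosa, formed the AOM+DSS pool. RNA of normal colon from C57BL/6 wild-type mice given neither agent formed the control pool. Each pool combined 6 individuals and was sequenced as 1 library. No difference below therefore has a replicate check, no test between the groups is possible, and an adenoma is compared with whole normal colon rather than with the normal tissue of the same animals. Ages and doses are not given in the sources used here.

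Values are RPKM, reads per kilobase of gene scaled to the size of the library, a level that can be compared between genes. Read totals recovered from the values were 33174626 for the AOM+DSS pool and 29548883 for the control pool. A fold is a ratio of RPKM, given with a 95% interval that covers counting error only. The log2 difference is log2((AOM+DSS RPKM + 1)/(control RPKM + 1)), which is negative where the adenoma pool was lower and which understates the change of low genes. A gene passed the filter where either pool reached 1 RPKM, and the threshold for a call was 2-fold on this scale. Markers of colon epithelium were present in both pools, 10 of 10 above 0 with a summed level of 6595 RPKM in the AOM+DSS pool and 9093 RPKM in the control pool.

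Mucin-type O-glycans are built in the Golgi one sugar at a time. A GalNAc transferase starts the chain on serine or threonine, other enzymes lay down a core, extend it with galactose and N-acetylglucosamine, and cap it with sialic acid, fucose, N-acetylgalactosamine or sulfate. In the colon these chains make up a large part of the mass of the secreted mucins, and they shape how bacteria attach and feed. The same families also hold enzymes of glycolipids, of N-linked chains and of chondroitin and dermatan sulfate.

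The adenoma pool held less RNA of these enzymes in each of the 8 classes by summed level, between 1.25 times less for core 1 and 4.01 times less for terminal GalNAc. Of the 94 genes, 64 passed the filter. On the log2 scale, 24 of the 64 were at least 2-fold lower in the AOM+DSS pool, and 0 were at least 2-fold higher. Over all 12910 mRNA genes past the filter the shares were 13.1% lower and 10.4% higher. The median log2 difference was -0.64 for the enzymes and -0.17 for all mRNA genes. Over all mRNA genes the log2 difference drifted with transcript length. With that drift subtracted the median of the enzymes was -0.64 again, 20 of the 64 were lower by 2-fold or more and 0 were higher, beside 9.97% and 5.34% of mRNA genes. With both pools brought to equal RPKM sums, 30 enzymes were lower and 0 higher, beside 22.9% and 5.58% of mRNA genes. After trimmed-mean scaling, 19 were lower and 0 higher, beside 9.97% and 13.3%. At a threshold of 1.5-fold 36 were lower and 3 higher, beside 29.2% and 19.5%, and at 4-fold 7 were lower and 0 higher, beside 1.29% and 1.82%. The summed level of the 64 genes was 759.7 RPKM in the AOM+DSS pool and 1809 RPKM in the control pool. Of the 64, 56 reached 1 RPKM in both pools, 7 in the control pool alone and 1 in the AOM+DSS pool alone. This split was not counted over all mRNA genes, so it cannot be read as a trait of the enzymes.

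**Figure D1:**
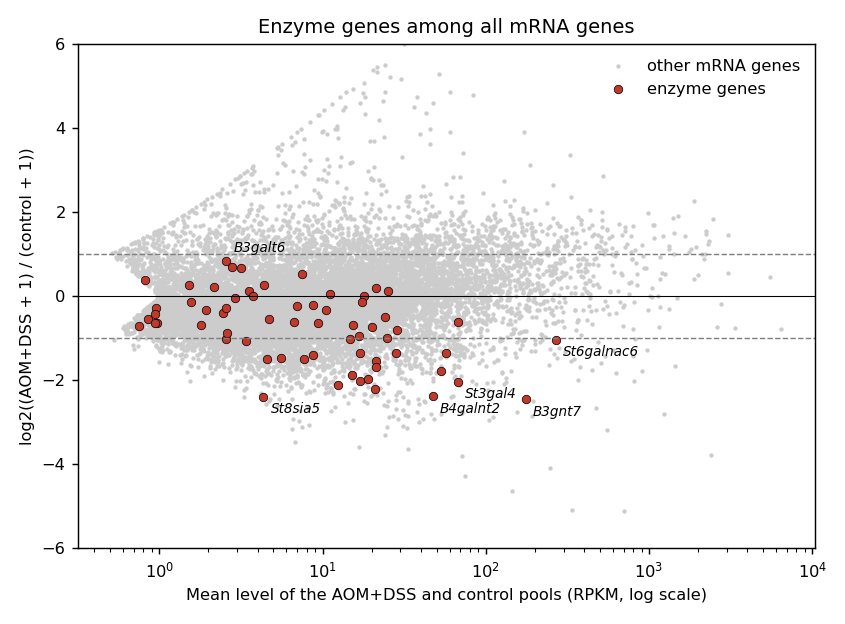
Each point is an mRNA gene of at least 1 RPKM in either pool, placed by its mean level (x axis, RPKM, log scale) and its log2 difference between the AOM+DSS and control pools (y axis); dashed lines mark 2-fold and 16 genes beyond a log2 difference of 6 lie outside the plot. The enzyme genes (red) lie mostly below 0, and none of them crosses the upper 2-fold line.

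The enzymes were also divided by their mean level over the pools. Among the 29 enzymes with a mean level of 10 RPKM or more, 17 were at least 2-fold lower, with a median log2 difference of -1.04. None of the 29 was at least 2-fold higher, and the shares of all mRNA genes at that level were 12.9% lower and 14.8% higher. Among the 35 with a lower mean level, 7 were at least 2-fold lower, 0 were higher, and their median was -0.40, beside 13.3% of mRNA genes lower and 7.11% higher. In the control pool 7 of the 94 enzyme genes ranked among the 1000 of highest RPKM out of all 22388 mRNA genes. In the AOM+DSS pool 1 of the 94 did, the sialyltransferase gene St6galnac6.

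Most markers of goblet cells and colonocytes were lower too. The counts of markers below stand beside 13.1% of all mRNA genes at least 2-fold lower and 10.4% at least 2-fold higher. These shares were 9.97% and 5.34% after length adjustment, and 22.9% and 5.58% at equal RPKM sums. Of 11 goblet cell markers 8 were at least 2-fold lower and 1, Spink4, was higher, with a log2 difference of 1.48 that became 0.41 after length adjustment. Their summed level was 5373 RPKM in the AOM+DSS pool and 10584 RPKM in the control pool. Of 9 colonocyte markers 7 were at least 2-fold lower, 0 were higher, and the sums were 462.2 RPKM in the AOM+DSS pool and 2138 RPKM in the control pool. Of 10 general epithelial markers 5 were at least 2-fold lower. No marker of these lists was at 0 in either pool. The 4 neutrophil markers, none at 0, summed to 388.4 RPKM in the AOM+DSS pool and 114.4 RPKM in the control pool. Of the 4, 3 were at least 2-fold higher. The other, Ly6g, was at 83.2 RPKM in the AOM+DSS pool and 112.5 RPKM in the control pool, most of the control sum. Its log2 difference of -0.43 became -1.33 after length adjustment. The 6 B and plasma cell markers summed to 1149 RPKM in the AOM+DSS pool and 564.8 RPKM in the control pool, with 1 at least 2-fold higher. That gene, Igj, made up most of the sum, at 991.0 RPKM in the AOM+DSS pool and 437.1 RPKM in the control pool, and it was under 2-fold after length adjustment and at equal RPKM sums. The 5 Paneth cell markers, 3 of them at 0 in the control pool, were all at least 2-fold higher and summed to 1155 RPKM in the AOM+DSS pool and 37.9 RPKM in the control pool. T cell markers summed to 22.6 RPKM in the AOM+DSS pool and 9.40 RPKM in the control pool, with 2 of 5 at least 2-fold higher (1 length-adjusted). The 5 endothelial markers summed to 15.2 RPKM in the AOM+DSS pool and 32.5 RPKM in the control pool. All had a negative log2 difference, and 1 was at least 2-fold lower (0 length-adjusted, 4 at equal RPKM sums). Of 7 smooth muscle markers 2 were at least 2-fold lower (0 length-adjusted), and the sums were 1784 RPKM in the AOM+DSS pool and 2160 RPKM in the control pool. None of the markers of fibroblasts, macrophages or enteric neurons and glia past the filter differed by 2-fold on the log2 scale. At equal RPKM sums 1 of them, the fibroblast marker Pdgfra, was at least 2-fold lower, with a log2 difference of -1.18. The part of any of these cell types in the enzyme levels was not tested. In bulk tissue, fewer cells of a type and less RNA per cell cannot be told apart.

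**Figure D2:**
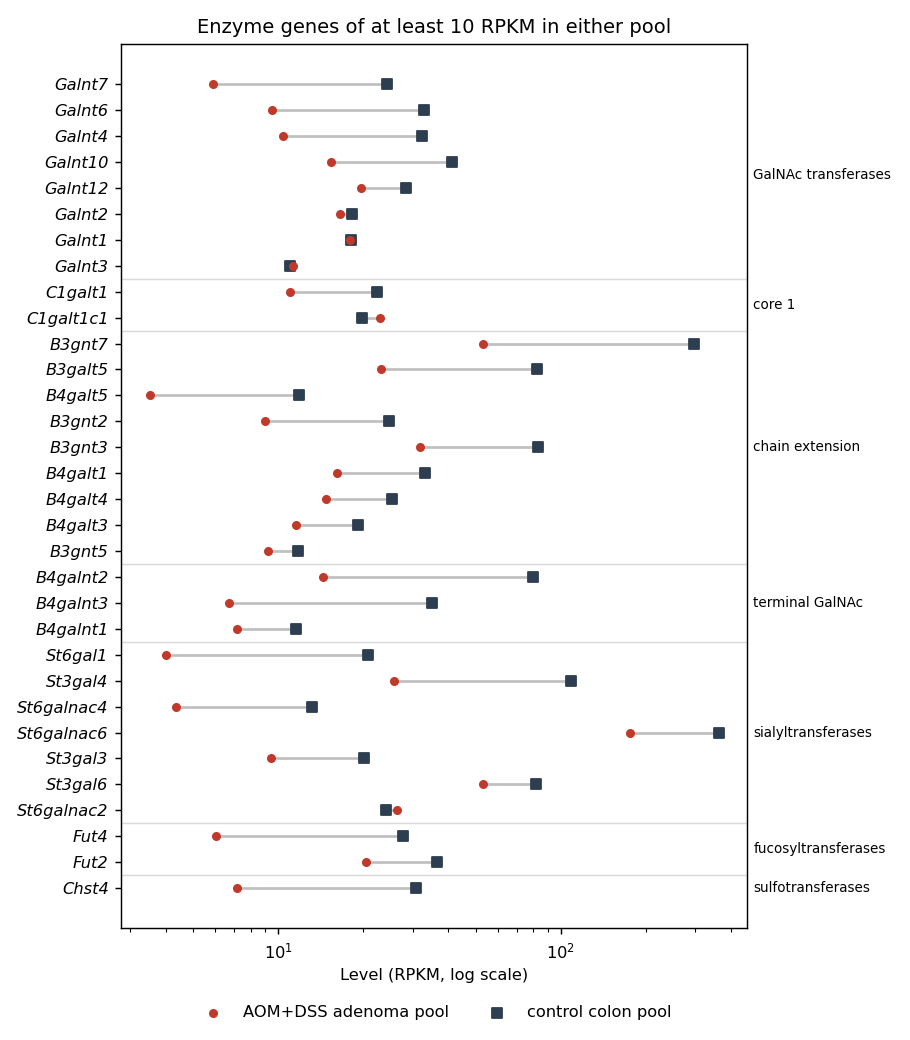
Levels (x axis, RPKM, log scale) of the 32 enzyme genes that reached 10 RPKM in either pool, grouped by step of the pathway, with red circles for the AOM+DSS adenoma pool and dark squares for the control colon pool. The longest gaps are those of B3gnt7, B4galnt2, B4galnt3 and St6gal1, while Galnt1, Galnt2, Galnt3, C1galt1c1 and St6galnac2 lie close together.

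GalNAc transferases, which attach the first sugar, split into genes that were lower and genes at similar levels. Of 18 genes 13 passed the filter, 5 were at least 2-fold lower and 0 higher, beside 13.1% and 10.4% of all mRNA genes. The median log2 difference of the 13 was -0.64 (-0.31 length-adjusted). The summed level of the 13 was 121.2 RPKM in the AOM+DSS pool and 224.6 RPKM in the control pool. Galnt7, which prefers peptides that already carry GalNAc, was at 5.86 RPKM in the AOM+DSS pool and 24.4 RPKM in the control pool, 4.15-fold lower (3.85 to 4.49). Galnt6, a close relative of Galnt3, was at 9.50 RPKM in adenoma and 32.9 RPKM in control colon, 3.46-fold lower (3.25 to 3.70). Galnt4 was at 10.4 RPKM in the AOM+DSS pool and 32.3 RPKM in the control pool, 3.09-fold lower (2.93 to 3.27). Galnt5 was at 1.88 RPKM in adenoma and 7.21 RPKM in control colon. Galnt10, also a follow-on enzyme and the most abundant of the family in the control pool, was at 15.4 RPKM in the AOM+DSS pool and 41.3 RPKM in the control pool, with a log2 difference of -1.37 (-0.97 length-adjusted).

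Galnt1, Galnt2 and Galnt3 differed little in the deposited values, and the sign of their difference depended on the scaling. Galnt1 was at 18.0 RPKM in the AOM+DSS pool and 18.1 RPKM in the control pool, and its interval of the ratio ran from 0.939 to 1.05. Its log2 difference was 0.30 after length adjustment and -0.38 at equal RPKM sums. Galnt2 was at 16.6 RPKM in adenoma and 18.3 RPKM in control colon. Its log2 difference of -0.13 became 0.18 after length adjustment and -0.50 at equal RPKM sums. Galnt3 was at 11.3 RPKM in the AOM+DSS pool and 11.01 RPKM in the control pool, a log2 difference of 0.04 (-0.32 at equal RPKM sums). Galnt12, whose human counterpart has been linked to colorectal cancer, was at 19.7 RPKM in the AOM+DSS pool and 28.5 RPKM in the control pool. Its log2 difference of -0.51 stayed negative, at -0.63 after length adjustment, -0.88 at equal RPKM sums and -0.34 after trimmed-mean scaling. Galnt11 went the other way, at 9.03 RPKM in the AOM+DSS pool and 6.01 RPKM in the control pool, 1.504-fold higher (1.34 to 1.69). The make-up of the family differed as well. Galnt7, Galnt6 and Galnt4 held 4.83%, 7.83% and 8.59% of its summed RPKM in the AOM+DSS pool and 10.8%, 14.6% and 14.3% in the control pool. Galnt1 and Galnt2 held 14.8% and 13.7% in the AOM+DSS pool and 8.03% and 8.10% in the control pool.

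The remaining GalNAc transferases were low in both pools. Galntl1 and Galntl2, now called Galnt16 and Galnt15, were at 0.538 and 0.515 RPKM in the AOM+DSS pool and 1.39 and 1.37 RPKM in the control pool. Galntl4, now Galnt18, was at 2.40 RPKM in the AOM+DSS pool and 1.95 RPKM in the control pool. Galnt9, Galnt13, Galnt14 and Galntl6 stayed under 0.3 RPKM in both pools, and Galntl5, known for its expression in testis, was listed at 0 in both. At 3 reads Galntl5 would have stood at 0.0556 RPKM in the AOM+DSS pool and 0.0624 RPKM in the control pool.

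Core 1 synthase and the branching enzymes past the filter had lower levels in the adenoma pool, and the chaperone of core 1 synthesis did not. C1galt1, the enzyme that makes core 1, was at 11.02 RPKM in the AOM+DSS pool and 22.3 RPKM in the control pool, 2.03-fold lower (1.92 to 2.14), just short of 2-fold on the log2 scale at -0.96. C1galt1c1, the chaperone that it needs to fold, was at 22.9 RPKM in the AOM+DSS pool and 19.9 RPKM in the control pool, with a log2 difference of 0.19 that became -0.33 after length adjustment and -0.19 at equal RPKM sums. The chaperone held 67.5% of the RPKM of this pair in the AOM+DSS pool and 47.1% in the control pool. Of the branching enzymes, Gcnt3, which makes core 2 and core 4 in mucin-secreting tissue, was at 2.46 RPKM in the AOM+DSS pool and 8.65 RPKM in the control pool, 3.52-fold lower (3.12 to 3.98). Gcnt1, the core 2 enzyme known best from leukocytes, was at 1.35 RPKM in adenoma and 3.75 RPKM in control colon, 2.77-fold lower (2.35 to 3.27). Its log2 difference of -1.01 became -0.63 after length adjustment.

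B3gnt6, the core 3 synthase, did not pass the filter. It was at 0.637 RPKM in the AOM+DSS pool and 0.315 RPKM in the control pool, 2.02-fold higher (1.20 to 3.51) on about 50.1 reads in the AOM+DSS pool and 22.04 reads in the control pool. Gcnt2 and Gcnt4 were under 0.4 RPKM in both pools, and Gcnt7 was listed at 0 in the AOM+DSS pool and at 0.0457 RPKM in the control pool, a value that corresponds to 3 reads.

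Enzymes that extend chains included B3gnt7, whose log2 difference was -2.46. Of 22 genes 19 passed the filter, 6 were at least 2-fold lower and 0 higher, beside 13.1% and 10.4% of all mRNA genes. The median of the 19 was -0.34 (-0.70 length-adjusted). B3gnt7, which adds N-acetylglucosamine to extended and sulfated chains, was at 53.3 RPKM in the AOM+DSS pool and 297.6 RPKM in the control pool, 5.59-fold lower (5.41 to 5.77). It held 24.8% of the RPKM of the class in the AOM+DSS pool and 46.9% in the control pool. B3galt5, which makes type 1 chains, was at 23.2 RPKM in the AOM+DSS pool and 82.7 RPKM in the control pool, 3.57-fold lower (3.44 to 3.70). B3gnt3, which extends core 1, was at 31.9 RPKM in adenoma and 82.9 RPKM in control colon, 2.60-fold lower (2.50 to 2.71). B3gnt2, a main enzyme of repeated lactosamine units, was at 9.01 RPKM in the AOM+DSS pool and 24.8 RPKM in the control pool.

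Of the 7 B4galt galactosyltransferases, 2 were at least 2-fold lower and 0 higher, beside 13.1% and 10.4% of all mRNA genes. B4galt1, the main enzyme that adds galactose to N-acetylglucosamine, was at 16.1 RPKM in the AOM+DSS pool and 33.2 RPKM in the control pool, with a log2 difference of -1.001 (-0.73 length-adjusted). B4galt3 and B4galt4 were at 11.6 and 14.7 RPKM in the AOM+DSS pool and at 19.3 and 25.4 RPKM in the control pool. B4galt5 and B4galt6, the 2 lactosylceramide synthases, went different ways: B4galt5 was at 3.51 RPKM in the AOM+DSS pool and 11.8 RPKM in the control pool, and B4galt6 at 4.85 RPKM in adenoma and 3.90 RPKM in control colon, a log2 difference of 0.26 that became -0.06 at equal RPKM sums. B4galt2 was at 4.08 RPKM in the AOM+DSS pool and 2.22 RPKM in the control pool, 1.84-fold higher (1.52 to 2.23).

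Other extension genes were low or similar. B3galt6, which builds the linker of glycosaminoglycans rather than mucin chains, had the highest log2 difference of the set, 0.83. It was at 3.57 RPKM in the AOM+DSS pool and 1.57 RPKM in the control pool. By the ratio it was 2.28-fold higher (1.88 to 2.77), but it stayed under 2-fold on the log2 scale. B4galt7, the preceding enzyme of the same linker, was at 8.05 RPKM in adenoma and 9.53 RPKM in control colon. B3gnt5, B3galt4, B3gnt8, B3gntl1 and the gene listed as B3gnt9-ps had log2 differences between -0.32 and 0.12. B3galt1, B3galt2 and B3gnt4 did not pass the filter. B3galtl, now B3glct, acts on thrombospondin repeats and was at 1.60 RPKM in the AOM+DSS pool and 2.29 RPKM in the control pool. B3gnt1, now B4gat1, which acts on dystroglycan, was at 5.13 RPKM in adenoma and 8.34 RPKM in control colon.

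**Figure D3:**
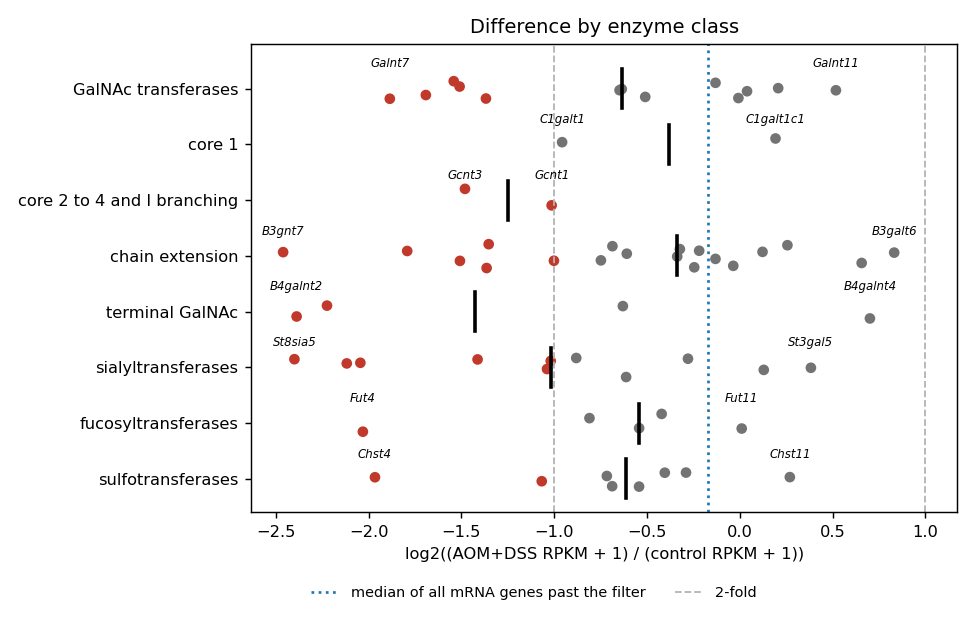
Log2 difference between the AOM+DSS and control pools (x axis) of the 64 enzyme genes past the filter, 1 point each, by class (rows), with the class median as a black bar, dashed lines at 2-fold and a dotted line at the median of all mRNA genes, -0.17. Red points are at least 2-fold lower, and the class medians range from -1.43 for terminal GalNAc to -0.34 for chain extension.

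The class of terminal GalNAc enzymes had a median of -1.43 (-1.37 length-adjusted) over 4 genes, all past the filter. Of the 4, 2 were at least 2-fold lower and 0 higher, beside 13.1% and 10.4% of all mRNA genes. B4galnt2, which makes the Sda antigen of the gut, was at 14.5 RPKM in the AOM+DSS pool and 79.9 RPKM in the control pool, 5.53-fold lower (5.13 to 5.97). B4galnt3, which makes the GalNAc-GlcNAc unit called LacdiNAc, was at 6.70 RPKM in adenoma and 34.97 RPKM in control colon, 5.22-fold lower (4.84 to 5.64). B4galnt4, the other enzyme of that unit, went the other way, at 3.67 RPKM in the AOM+DSS pool and 1.87 RPKM in the control pool, 1.96-fold higher (1.65 to 2.33). B4galnt1, a ganglioside synthase, was at 7.15 RPKM in the AOM+DSS pool and 11.6 RPKM in the control pool.

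Several abundant sialyltransferases were lower, with exceptions. Of 20 genes 11 passed the filter, 6 were at least 2-fold lower and 0 higher, beside 13.1% and 10.4% of all mRNA genes. The median of the 11 was -1.02 (-1.06 length-adjusted). The summed level of the 11 was 304.7 RPKM in the AOM+DSS pool and 647.0 RPKM in the control pool. St6galnac6, which adds sialic acid to N-acetylglucosamine and to gangliosides, had the highest level of all 94 genes in both pools, 176.0 RPKM in the AOM+DSS pool and 362.5 RPKM in the control pool. It was 2.06-fold lower (2.02 to 2.10), with a log2 difference of -1.04 that became -0.87 after trimmed-mean scaling. It held 57.4% of the sialyltransferase RPKM in the AOM+DSS pool and 55.8% in the control pool. St3gal4, which caps galactose on lactosamine ends, was at 25.7 RPKM in the AOM+DSS pool and 109.1 RPKM in the control pool, 4.25-fold lower (4.03 to 4.48). St3gal6, with a similar activity, was at 53.3 RPKM in adenoma and 82.0 RPKM in control colon, 1.54-fold lower (1.49 to 1.59). St6gal1, the main enzyme for sialic acid on N-linked chains, was at 4.01 RPKM in the AOM+DSS pool and 20.7 RPKM in the control pool, 5.17-fold lower (4.73 to 5.66).

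St8sia5, a ganglioside enzyme, showed the largest ratio among the 64, at 0.702 RPKM in the AOM+DSS pool and 7.98 RPKM in the control pool, 11.4-fold lower (9.43 to 13.7). It was the 1 gene of 6 in its family that passed the filter. St6galnac4 was at 4.34 RPKM in the AOM+DSS pool and 13.2 RPKM in the control pool, and St3gal3 at 9.44 RPKM in adenoma and 20.2 RPKM in control colon. The log2 difference of St3gal3, -1.02, became -0.86 after trimmed-mean scaling. That scaling left 4 sialyltransferases at least 2-fold lower, beside 9.97% of all mRNA genes. St6galnac2, which adds sialic acid to the first GalNAc of mucin chains, did not share the direction, at 26.4 RPKM in the AOM+DSS pool and 24.02 RPKM in the control pool, 1.10-fold higher (1.04 to 1.16) but with a log2 difference of -0.25 at equal RPKM sums. St6galnac1, the enzyme best known for sialyl-Tn, was at 0.0252 RPKM in the AOM+DSS pool and 0.163 RPKM in the control pool. St3gal5, the GM3 synthase, was at 1.05 RPKM in adenoma and 0.574 RPKM in control colon. St3gal1 and St3gal2, which cap core 1, were at 2.23 and 1.53 RPKM in the AOM+DSS pool and at 2.92 and 3.66 RPKM in the control pool. St6gal2, St6galnac3, St6galnac5, St8sia1, St8sia2, St8sia3, St8sia4 and St8sia6 stayed under 1 RPKM in both pools. St6gal2 was at 0.0265 RPKM in the AOM+DSS pool and listed at 0 in the control pool, for which 3 reads correspond to 0.0167 RPKM.

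The genes St6galnac4 and St6galnac6 are neighbours. In RefSeq on GRCm38 they lie on chromosome 2 from 32587078 to 32599696 and from 32599709 to 32620809, 13 bases apart, and their log2 differences were -1.41 and -1.04. The strand used in counting is not given in the sources used here, so reads from their shared edge could have been counted for either gene. Fut1 and Fut2, on chromosome 7 with 27532 bases between them, had log2 differences of -0.10 and -0.81.

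**Figure D4:**
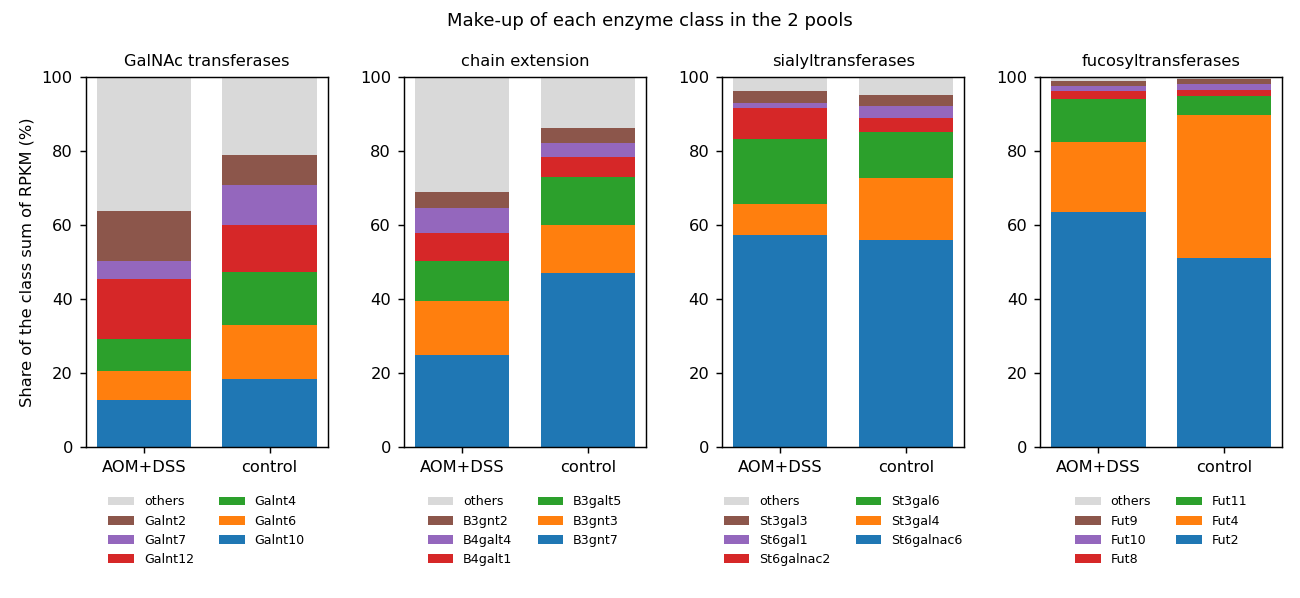
Share of the summed RPKM of 4 enzyme classes (y axis, %) held by each gene, with the AOM+DSS pool on the left and the control pool on the right of each panel; the 6 most abundant genes of the control pool are coloured and the rest are grey. B3gnt7 takes 24.8% of chain extension in the AOM+DSS pool and 46.9% in the control pool, and St6galnac6 takes 57.4% of the sialyltransferase RPKM in the AOM+DSS pool and 55.8% in the control pool.

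Fucosyltransferases were led by a pair of genes. Fut2, which makes the H antigen of intestinal mucus, was at 20.4 RPKM in the AOM+DSS pool and 36.5 RPKM in the control pool, 1.79-fold lower (1.69 to 1.89). Fut4, which makes Lewis x structures, was at 6.02 RPKM in adenoma and 27.7 RPKM in control colon, 4.598-fold lower (4.26 to 4.97). Fut2 held 63.6% of the fucosyltransferase RPKM in the AOM+DSS pool and 51.0% in the control pool, and Fut4 held 18.8% in the AOM+DSS pool and 38.7% in the control pool. Of 8 genes 5 passed the filter, with a median of -0.54. Of the 5, 1 (20%) was at least 2-fold lower and 0 were higher, beside 13.1% and 10.4% of all mRNA genes. Fut11 was at 3.76 RPKM in the AOM+DSS pool and 3.72 RPKM in the control pool. Fut8, which fucosylates the core of N-linked chains, was at 0.658 RPKM in adenoma and 1.22 RPKM in control colon, and Fut10 at 0.509 RPKM in adenoma and 1.20 RPKM in control colon. Fut1, Fut7 and Fut9 stayed under 1 RPKM in both pools.

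Among sulfotransferases the mucin enzyme Chst4 stood out by level in the control pool. Chst4, which adds sulfate to N-acetylglucosamine, was at 7.16 RPKM in the AOM+DSS pool and 30.9 RPKM in the control pool, 4.31-fold lower (3.89 to 4.79). It held 35.2% of the sulfotransferase RPKM in the AOM+DSS pool and 59.2% in the control pool. Its close relative Chst5 was listed at 0 in the AOM+DSS pool, for which 3 reads correspond to 0.0414 RPKM, and at 0.0700 RPKM in the control pool. The sequences of the 2 genes are alike, so their reads may not be fully separated. Of 14 genes 8 passed the filter, with a median of -0.61. Of the 8, 2 (25%) were at least 2-fold lower and 0 higher, beside 13.1% and 10.4% of all mRNA genes.

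The enzymes of chondroitin and dermatan sulfate differed less than Chst4. Chst15, which adds a second sulfate to chondroitin, was at 1.84 RPKM in the AOM+DSS pool and 4.96 RPKM in the control pool, with a log2 difference of -1.07 (-0.64 length-adjusted). Chst12 was at 3.63 RPKM in adenoma and 5.74 RPKM in control colon, and Chst14, the dermatan enzyme, at 1.14 RPKM in adenoma and 2.45 RPKM in control colon. Chst11, a chondroitin enzyme, was at 1.76 RPKM in the AOM+DSS pool and 1.29 RPKM in the control pool, 1.37-fold higher (1.14 to 1.63). Chst1, Chst2 and Chst10 were under 3 RPKM in both pools with log2 differences of -0.40, -0.29 and -0.72. Chst3, Chst7, Chst8 and Chst13 did not pass the filter, and Chst9 was listed at 0 in both pools. Grouped by textbook substrate, 1 of the 6 glycosaminoglycan enzymes past the filter and 2 of the 7 glycolipid enzymes were at least 2-fold lower, as were 21 of the other 51 and 13.1% of all mRNA genes. The 1 glycosaminoglycan call, Chst15, was lost after length adjustment and after trimmed-mean scaling. This grouping was made after the values were seen, and the difference between its groups was not tested.

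Higher values were few, and none reached 2-fold on the log2 scale. Over all 12910 mRNA genes past the filter, 5413 had a positive and 7497 a negative log2 difference. Of the 64 enzyme genes, 13 had a positive log2 difference, and 6 of the 13 were positive under each of the scalings tried. The 6 were Chst11, St3gal5, Galnt11, B4galt2, B4galnt4 and B3galt6. The other 7, Fut11, Galnt3, B3gnt9-ps, St6galnac2, C1galt1c1, Galntl4 and B4galt6, were negative at equal RPKM sums. Of the 51 with a negative value, 44 were negative under each scaling. How many of all mRNA genes kept their sign under each scaling was not counted. The other 7, B3galtl, B3gnt5, Chst2, St3gal1, Galnt2, B3gntl1 and Galnt1, turned positive after length adjustment. The counting interval of the ratio lay below 1 for 48 of the 64, above 1 for 9 and included 1 for 7. The same count was not made over all mRNA genes. These intervals take the deposited scale of the pools as given and are narrow at this depth.

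Promoter sequence was examined because many of these genes were lower together. RefSeq (GRCm38) promoters were found for 72 of the 94 genes, 21 of them among the 24 that were at least 2-fold lower. The 250 bases before the listed transcription start are printed here for 4 lower genes. A gene needed at least 20 RPKM in a pool, a single listed start and a GENCODE start within 50 bases. Of such genes, the 4 with the most negative log2 difference were taken. B3gnt7 (chr1:86302971-86303220, plus strand), B4galnt2 (chr11:95914872-95915121, minus strand), St3gal4 (chr9:35116865-35117114, minus strand) and Chst4 (chr8:110039335-110039584, minus strand) are written 5′ to 3′ on the gene's strand. Capitals mark the SP/KLF box GGGCGG or its reverse CCGCCC in the first 3, and the E-box CAGCTG in Chst4. The listed starts of B4galnt2 and Chst4 lie inside the RefSeq genes, which reach to 95914960 and 110039401. These 2 windows therefore overlap the annotated genes in part. The B4galnt2 box, 71 bases upstream of the listed start, lies in the overlapping part.
B3gnt7: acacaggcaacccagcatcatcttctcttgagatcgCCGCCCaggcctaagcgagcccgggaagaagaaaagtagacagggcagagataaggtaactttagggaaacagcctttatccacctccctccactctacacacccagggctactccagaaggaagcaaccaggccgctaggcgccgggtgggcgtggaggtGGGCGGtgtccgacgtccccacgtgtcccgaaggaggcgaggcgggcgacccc
B4galnt2: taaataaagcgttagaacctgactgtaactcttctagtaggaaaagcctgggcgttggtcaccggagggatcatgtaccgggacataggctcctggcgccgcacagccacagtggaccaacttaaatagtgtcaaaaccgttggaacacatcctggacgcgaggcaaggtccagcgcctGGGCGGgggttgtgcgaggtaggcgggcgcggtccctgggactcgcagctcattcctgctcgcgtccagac
St3gal4: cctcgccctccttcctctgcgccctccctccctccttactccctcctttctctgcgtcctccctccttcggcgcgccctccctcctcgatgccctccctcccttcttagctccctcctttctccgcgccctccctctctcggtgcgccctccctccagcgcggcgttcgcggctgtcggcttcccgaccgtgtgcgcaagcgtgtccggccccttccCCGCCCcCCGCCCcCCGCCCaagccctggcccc
Chst4: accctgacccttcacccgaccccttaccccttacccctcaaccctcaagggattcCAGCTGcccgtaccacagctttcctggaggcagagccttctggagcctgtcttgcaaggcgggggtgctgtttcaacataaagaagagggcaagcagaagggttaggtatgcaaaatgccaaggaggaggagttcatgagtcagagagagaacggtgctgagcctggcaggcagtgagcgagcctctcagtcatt

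The shares of promoters with each motif were set beside those of expressed mRNA genes, those past the filter. The SP/KLF box, searched on both strands, was in 13 of 21 promoters of lower enzymes (61.9%), in 16 of 27 of the other enzymes past the filter (59.3%) and in 58.6% of the 9886 mRNA genes past the filter that have a promoter listed. It was in 32.9% of all 27025 promoters. Median GC content was 61.6%, 61.2% and 59.6% in the first 3 of these groups and 52.0% over all promoters. The E-box CAGCTG was in 2 of the 21 (9.52%) and in 11.8% of the expressed mRNA genes, and the ETS box CCGGAA in 2 of the 21 (9.52%) and in 21.8%. The TATA box TATAAA was in 1 of the 21 and in 7.23% of the expressed mRNA genes, and the HNF4 box CAAAGTC in 1 of the 21 and in 3.51%. The CDX box TTTATNG, the TCF/LEF box CTTTGAT and the HNF1 box GTTAAT, found in 6.73%, 2.39% and 3.85% of those genes, were in 0 of the 21. The letters of the TCF/LEF and HNF4 boxes can overlap. A match is a run of letters and not a bound site, and a missing match concerns this window only.

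The substrates and donors of these enzymes were measured in the same libraries. Of 10 mucin genes measured 5 passed the filter, 4 were at least 2-fold lower and 0 higher, beside 13.1% and 10.4% of all mRNA genes, with a median log2 difference of -1.78. Muc2, the main secreted mucin of the colon, was at 64.1 RPKM in the AOM+DSS pool and 222.0 RPKM in the control pool, 3.46-fold lower (3.37 to 3.56). The membrane mucins Muc3 and Muc13 were at 147.2 and 291.6 RPKM in the AOM+DSS pool and at 591.3 and 787.9 RPKM in the control pool. Muc4, another membrane mucin, was at 1.56 RPKM in the AOM+DSS pool and 9.50 RPKM in the control pool, 6.10-fold lower (5.59 to 6.68). Muc1 was at 3.25 RPKM in adenoma and 4.15 RPKM in control colon. Below the filter, the gastric mucin Muc6 was at 0.473 RPKM in the AOM+DSS pool and 0.0127 RPKM in the control pool, 37.4-fold higher (13.7 to 201.1). Muc16, a membrane mucin also below the filter, was at 0.146 RPKM in the AOM+DSS pool and 0.0328 RPKM in the control pool, 4.45-fold higher (2.83 to 7.03).

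Of 33 genes that supply activated sugars and sulfate, 32 passed the filter, 10 were at least 2-fold lower and 0 higher, beside 13.1% and 10.4% of all mRNA genes, with a median of -0.66 (-0.53 length-adjusted). The count lower was 6 after trimmed-mean scaling and 13 at equal RPKM sums, beside 9.97% and 22.9% of all mRNA genes. Slc26a2, which brings sulfate into the cell, was at 4.08 RPKM in the AOM+DSS pool and 62.7 RPKM in the control pool, 15.3-fold lower (14.4 to 16.4). Both enzymes that make the sulfate donor were lower, Papss1 at 39.6 RPKM in the AOM+DSS pool and 83.3 RPKM in the control pool and Papss2 at 22.6 RPKM in adenoma and 48.7 RPKM in control colon. Gfpt1, which starts the synthesis of amino sugars, was at 25.3 RPKM in the AOM+DSS pool and 113.4 RPKM in the control pool, 4.49-fold lower (4.36 to 4.63). The Golgi carriers for the sialic acid, galactose and N-acetylglucosamine donors, Slc35a1, Slc35a2 and Slc35a3, had log2 differences of -1.06, -1.43 and -1.52, and the carrier for the fucose donor, Slc35c1, -1.37. The most abundant gene of the list, Nans, which makes sialic acid phosphate, was at 233.8 RPKM in the AOM+DSS pool and 352.4 RPKM in the control pool. Others went the other way below 2-fold, among them Tsta3, which makes the fucose donor, at 149.2 RPKM in the AOM+DSS pool and 98.9 RPKM in the control pool, although its log2 difference of 0.59 became 0.00 after length adjustment. Slc35b2, a carrier of the sulfate donor, was at 52.5 RPKM in adenoma and 34.6 RPKM in control colon.

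**Figure D5:**
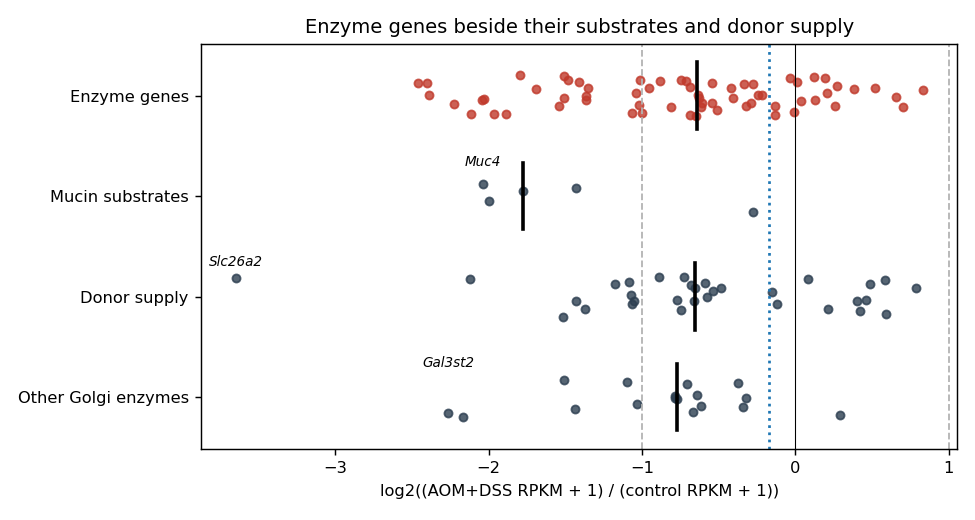
Log2 difference between the AOM+DSS and control pools (x axis) for genes past the filter in 4 sets (rows), 1 point per gene, with the median of each set as a black bar, dashed lines at 2-fold and a dotted line at the median of all mRNA genes. The medians are -0.64 for the enzyme genes, -1.78 for mucins, -0.66 for donor supply and -0.77 for other Golgi glycan enzymes.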

How the data were processed

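Per the labels, Trizol was used for extraction and RNA of 6 individuals per group was pooled before sequencing. The series description names a Proton sequencer and the library protocol Illumina, so the platform is not settled. The submitters' processing notes name the build GRCh37, a human assembly, although symbols are those of mouse. The authors deposited RPKM values of 35529 genes, with a symbol, a gene type and 1 column per pool. The aligner, the counting method and its use of strand are not given in the sources used here.

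Read totals were recovered from miRNA and snoRNA genes, among which 1 read gives a constant product of RPKM and RefSeq length. With them, 144 of 200 short genes in the AOM+DSS pool and 129 of 183 in the control pool came within 0.01 of a whole read. Reads per gene used the longest GENCODE M21 transcript tied to RefSeq, or else the longest, found for all 94 genes, 6 of them through newer symbols. B3gnt1 was matched to B4gat1 because B3gnt2, its other synonym, has a row of its own. Intervals are exact (Clopper-Pearson) binomial 95% intervals of these approximate reads and leave out differences between animals and library preparations.

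The log2 difference used a pseudocount of 1 RPKM and a filter of 1 RPKM in either pool. With 1 library per group no p-value was computed. The length adjustment subtracted a line through the medians of 20 bins of transcript length in mRNA genes and added back their median. Alternatives were pseudocounts of 0.1 and 5 RPKM, no filter and a filter of 5 RPKM, equal RPKM sums, a trimmed mean of log ratios, and thresholds of 1.5-fold and 4-fold. Genes were named by a rule covering the 12 highest and 12 lowest log2 differences and, per class, the most abundant and most different members; the remaining members are given so that all 94 are accounted for. For the other lists the rule took the 3 genes with the largest absolute differences and the most abundant one; the genes named beyond these, and the 8 motifs, were chosen after values were seen. The members and lists were chosen with earlier results of these data known. The steps were tested on simulated data. Computation used Python 3.11.15, numpy 2.4.6, pandas 2.3.3 and scipy 1.17.1.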

Additional observations from a re-analysis of the deposited data

How the results depend on the processing

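The count of 24 enzyme genes at least 2-fold lower stayed within 1.5 times under every alternative but 1, a threshold of 4-fold, which left 7. It was 31 with a pseudocount of 0.1 RPKM and 16 with 5 RPKM. The shares of all mRNA genes called with these pseudocounts were not counted. The enzyme count was 30 at equal RPKM sums (beside 22.9% of mRNA genes), 19 after trimmed-mean scaling (9.97%) and 20 after length adjustment (9.97%). Of the 24 genes, 24 were still called at equal sums, 19 after trimmed-mean scaling (not B4galt1, Chst15, Gcnt1, St3gal3 and St6galnac6) and 20 after length adjustment (not B4galt1, Chst15, Galnt10 and Gcnt1). The count at least 2-fold higher, 0, became 1 with a pseudocount of 0.1 RPKM and 3 at a threshold of 1.5-fold, and was 0 under the others. The median log2 difference of -0.64 became -0.82 and -0.40 with pseudocounts of 0.1 and 5 RPKM, -0.29 without the filter, -1.03 with a filter of 5 RPKM and -0.91 at equal RPKM sums, which lower all log2 values by up to 0.40. The gap to the median of all mRNA genes, -0.47, became -0.62 and -0.31 with the 2 pseudocounts, -0.29 without the filter and -0.93 with a filter of 5 RPKM. No class median and no named gene that was at least 2-fold lower changed sign, but class medians shrank without the filter, to -0.09 for core 2 to 4 and branching (-1.25 with it), -0.27 for sialyltransferases (-1.02), -0.29 for GalNAc transferases (-0.64) and -0.29 for sulfotransferases (-0.61). The lowest class median was that of terminal GalNAc, except with a pseudocount of 0.1 RPKM (-1.53, against -1.59 for core 2 to 4 and branching). The lowest log2 difference was that of B3gnt7 with the reported settings, but of St8sia5 with a pseudocount of 0.1 RPKM (-3.33) and after trimmed-mean scaling (-2.33), and of B4galnt2 after length adjustment (-2.75). Among 270 values of classes and named genes under the alternatives, 131 moved by no more than 0.1 (medians) or the counting interval (genes), and 139 moved by more. No paired analysis was possible because each group has 1 library. The spread between animals cannot be estimated from pooled RNA.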

Other observations

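Other glycan enzymes of the Golgi, which act on N-linked chains, heparan sulfate or other galactose ends, were mostly lower in the adenoma pool. Of 21 measured genes 17 passed the filter, 6 were at least 2-fold lower and 0 higher, beside 13.1% and 10.4% of all mRNA genes, with a median log2 difference of -0.77 (-0.84 length-adjusted). The count lower was 4 after length adjustment and after trimmed-mean scaling, beside 9.97% of all mRNA genes under each. It was 11 at equal RPKM sums, beside 22.9%. Gal3st2, which adds sulfate to galactose, was at 2.21 RPKM in the AOM+DSS pool and 14.4 RPKM in the control pool, 6.53-fold lower (5.63 to 7.60). Mgat3, which adds the bisecting residue to N-linked chains, was at 6.25 RPKM in adenoma and 31.5 RPKM in control colon, 5.04-fold lower (4.70 to 5.42). Mgat5, which opens the branch most often tied to tumour cell behaviour, was at 3.40 RPKM in the AOM+DSS pool and 11.5 RPKM in the control pool, with a log2 difference of -1.51 (-0.89 length-adjusted). Mgat4b, the most abundant of the list, was at 43.9 RPKM in the AOM+DSS pool and 90.8 RPKM in the control pool. Mgat2 was the 1 gene past the filter with a positive log2 difference, 0.29, which became -0.08 at equal RPKM sums. It was at 21.5 RPKM in the AOM+DSS pool and 17.3 RPKM in the control pool.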
